A study of Rattus norvegicus with 4 samples.

Results

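Genes of the centromere and kinetochore, the spindle checkpoint, the mitotic kinases, the spindle motors and cytokinesis were followed in hippocampal progenitor cells of Fisher 344 rats. The genes were those of a list of 60 symbols for this machinery, chosen by name and not by a measured value, though earlier results of these data were known when it was drawn up. Of these, 53 had a probe set annotated to that gene alone, out of 14217 named genes on the array, and 52 lay above log2 = 5, taken as the floor of reliable signal, on at least 1 array. Cenpa, the centromeric histone H3 variant, stayed under the floor on all 4 arrays, with log2 values of 3.43 in the DMSO control, 3.92 with retinoic acid and forskolin, and 3.32 and 3.42 with 1.7 and 5 uM of KHS101, the order of arrays kept below. Anln has a probe set that it shares with a second gene, and Cenph, Ndc80, Cdc25c, Kif4a, Tpx2 and Ncapg were not matched to a probe set, so these 7 genes were not analysed here.

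A dividing cell makes most mitotic proteins anew in each cycle. Their transcripts are low in resting and G1 cells, build up through S phase to a peak in G2 and mitosis, and are kept low outside that time by repressor complexes that act at short promoter elements. Neural progenitors divide in culture, and leaving the cycle accompanies their differentiation into neurons or glia, which is why these transcripts are commonly read as markers of division.

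The cells were held for 4 days under 1 of 4 conditions, with 1 Affymetrix array each. The groups were KHS101, a small molecule studied for driving neuronal differentiation, at 5 uM and at 1.7 uM, 1 uM retinoic acid combined with forskolin (RA+F) as positive control, and the solvent DMSO at 0.1% as negative control. All 4 groups were primary cells of low passage, expanded with basic fibroblast growth factor and then plated at 1000 cells per square centimetre in N2 medium. The labels give no concentration for forskolin, no age for the animals and no word on whether animals were pooled, and the study's design text names retinoic acid alone. Without replicates there is no test and no error for a condition: each value below is that of a single array, and a gene is called lower or higher when 2 arrays differ by 2-fold or more, which is 1 on the log2 scale. In cultures measured in bulk, fewer dividing cells and less of a transcript per cell cannot be told apart.

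Between 8389 and 8471 named genes lay above the floor on each array, and the medians of the arrays ran from 3.67 to 3.76. Of the 9 neural progenitor markers on the array, Nes, Sox2, Vim, Fabp7, Hes1 and Notch1 were above the floor and Pax6, Hes5 and Prom1 were not. Above the floor were also 4 of 7 immature neuron markers (not Dcx, Neurod1 and Stmn2), 4 of 6 mature neuron markers (not Rbfox3 and Snap25) and 2 of 6 astrocyte markers (not Gfap, Aqp4, Aldh1l1 and Slc1a2). In each of these 3 lists 1 marker was called higher than DMSO with RA+F, namely Tubb3 (2.20-fold), Gria2 (2.16-fold) and S100b (2.08-fold), and none was called with KHS101. All 6 microglial and 5 fibroblast markers stayed at the floor. Of 3 endothelial markers on the array, 1 was above the floor, with RA+F alone, at least 2.91-fold higher than DMSO. Oligodendrocyte lineage markers were present (6 of 7 above the floor), and the log2 of their summed level was 15.24 in DMSO, 15.60 with RA+F, 14.62 with KHS101 at 1.7 uM and 14.04 at 5 uM. Against DMSO, 4 of the 5 measured were called lower at 5 uM and 1 at 1.7 uM, with 0 higher. With RA+F 1 of 6 was called higher and 0 lower. The summed level of the progenitor markers was 16.08, 15.97, 15.76 and 15.34 in the same order, but single markers went both ways: against DMSO, Fabp7 differed by -1.21 at 1.7 uM and -2.11 at 5 uM, Hes1 by 1.53 and 1.34, and Nes by 0.61 and 0.52, on the log2 scale. Of the 6 measured, 4 lay below DMSO at 5 uM, with 2 called lower and 1 higher. At 1.7 uM 1 was called lower and 1 higher, and with RA+F 1 lower and 0 higher. As a sign of RNA integrity, the probe set at the 3' end of a control gene was compared with that at its 5' end. For beta-actin the 3' end read 1.26, 1.37, 1.40 and 1.54 above the 5' end on the log2 scale, again in that order. For hexokinase the difference was 0.69, 0.66, 0.80 and 0.96, and for GAPDH -0.16, -0.12, -0.14 and -0.11. The part that these markers and these RNA measures have in the differences below was not tested.

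The sequences in front of the genes are shown first because their shared letters were not used to choose the members. Promoter windows of 300 bases, from 250 before to 50 after the gene start, were taken from RefSeq (build GRCr8) and matched 52 of the 60 listed genes by symbol, without Aurkb, Incenp, Cdca2, Ccna2, Cenpt, Racgap1, Tpx2 and Foxm1. The cell cycle genes homology region, or CHR, is the element through which the DREAM and MuvB complexes hold mitotic genes down in resting cells and raise them in G2. It was searched as TTTGAA and TTCGAA on both strands, so that TTCAAA is a match. The CCAAT box, which binds the activator NF-Y, was searched on both strands as well. In each role group the member with the largest difference between KHS101 at 5 uM and DMSO is shown, among those with a CHR match in the 100 bases before the start. Among the members with a window, the other mitotic kinases and the transcription factors hold no such member and are not shown. Foxm1 has no window and could not be searched. Aurkb, Incenp and Cdca2, which differed further than Birc5, have none either. Spc25, Espl1 and Prc1 had the largest difference of all measured in their group, while Bub3 had the smallest. Capitals mark CHR matches and CCAAT boxes (ATTGG where the box is on the other strand), and each line ends at the base before the gene start.
Cenpi: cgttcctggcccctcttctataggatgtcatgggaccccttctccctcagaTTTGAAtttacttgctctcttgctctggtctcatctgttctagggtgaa
Spc25: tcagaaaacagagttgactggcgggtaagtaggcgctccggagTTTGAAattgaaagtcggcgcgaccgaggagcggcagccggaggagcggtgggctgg
Bub3: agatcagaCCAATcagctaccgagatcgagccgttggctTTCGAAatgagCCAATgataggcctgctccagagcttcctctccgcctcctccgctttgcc
Birc5: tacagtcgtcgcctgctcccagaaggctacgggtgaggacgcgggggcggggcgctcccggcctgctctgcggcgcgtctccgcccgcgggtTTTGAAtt
Cdk1: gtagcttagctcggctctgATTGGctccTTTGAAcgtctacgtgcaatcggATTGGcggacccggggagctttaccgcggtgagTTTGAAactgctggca
Espl1: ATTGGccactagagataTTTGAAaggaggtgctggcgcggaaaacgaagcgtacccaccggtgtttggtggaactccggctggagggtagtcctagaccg
Kif23: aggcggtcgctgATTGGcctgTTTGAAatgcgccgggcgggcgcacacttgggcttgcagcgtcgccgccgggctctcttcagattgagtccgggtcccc
Prc1: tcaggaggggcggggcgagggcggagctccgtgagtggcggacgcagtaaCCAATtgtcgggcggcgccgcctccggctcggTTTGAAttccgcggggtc
Top2a: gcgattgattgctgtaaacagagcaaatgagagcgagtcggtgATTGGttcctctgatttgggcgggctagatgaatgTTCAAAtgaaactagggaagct

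The windows lie at Cenpi chrX:101809559-101809658 (plus strand), Spc25 chr3:74396719-74396818 (minus strand), Bub3 chr1:195760432-195760531 (plus strand), Birc5 chr10:103572046-103572145 (plus strand), Cdk1 chr20:19265193-19265292 (plus strand), Espl1 chr7:135302616-135302715 (plus strand), Kif23 chr8:71320585-71320684 (minus strand), Prc1 chr1:143659381-143659480 (plus strand) and Top2a chr10:84473094-84473193 (minus strand), all on GRCr8. In Cenpi, which holds the inner kinetochore together, the match began 49 bases before the start, in Spc25 of the NDC80 complex 57, and in Prc1, the bundler of the central spindle, 18. The survivin gene Birc5 had its match 8 bases before the start.

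A CHR match was found in 38 of the 52 windows (73.1%), against 3509 of 18999 windows of protein-coding genes (18.5%). Between 50 bases before the start and the end of the window, 26 member windows (50.0%) and 914 of all windows (4.81%) had one. A CCAAT box was found in 35 member windows (67.3%) and in 38.4% of all windows, and both elements together in 29 (55.8%) and 7.64%. E2F motifs, searched on both strands as TTTCCCGC, TTTGGCGC and TTTCGCGC, were found in 1 member window (1.92%), that of Cdk1, and in 2.34% of all windows. Among 16 windows of genes for origin licensing and the replicative helicase, a comparison list of S phase genes, 11 had an E2F motif (68.8%) and 3 a CHR match (18.8%). A CCAAT box was found in 11 of these 16 (68.8%), close to the members' share, and both elements together in 2 (12.5%). No searched string contains another, although neighbouring matches can share end bases. The matches are letters in a window and do not show that a factor is bound there.

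**Figure D1:**
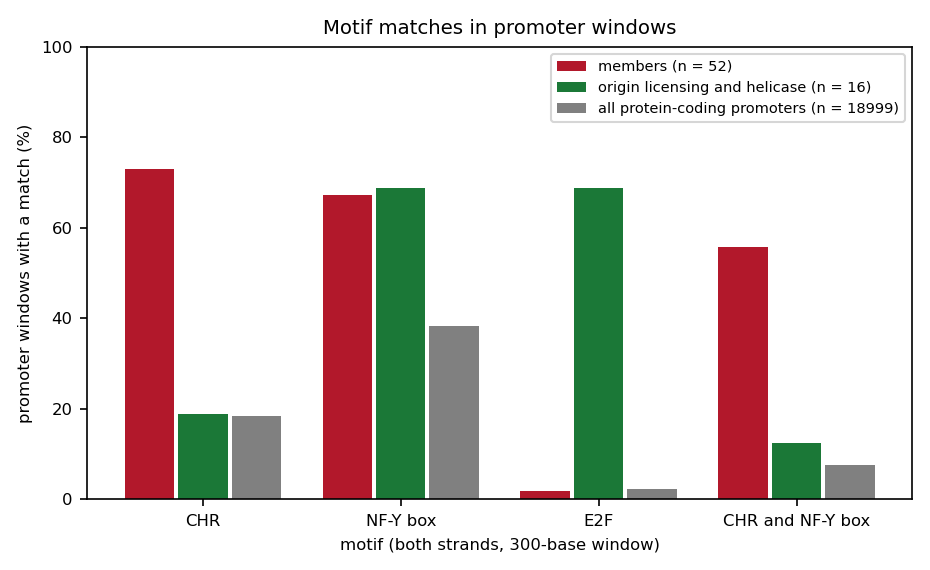
Bars give the percentage of 300-base promoter windows with at least 1 match to each motif, for 52 listed members (red), 16 origin licensing and helicase genes (green) and 18999 protein-coding genes (grey). CHR matches stand at 73.1%, 18.8% and 18.5% in that order, and E2F matches at 1.92%, 68.8% and 2.34%. CCAAT boxes stand at 67.3%, 68.8% and 38.4%.

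Against DMSO, the mitotic genes were lower on all 3 treated arrays, most at the higher KHS101 concentration. With KHS101 at 5 uM, 46 of the 52 measured members were lower by 2-fold or more and 0 were higher, while over all genes measured 8.10% were lower and 6.16% higher. The median log2 difference of the members was -1.52, a 2.87-fold lower level, beside 0.00 over all 8543 genes. At 1.7 uM, 39 were lower and 0 higher (4.27% and 4.36% of all genes), with a median of -1.19 beside -0.01 over all genes. With RA+F, 10 were lower and 0 higher (3.15% and 4.34% of all genes), with a median of -0.71 beside -0.03. In each of these comparisons every one of the 52 members lay below DMSO by some amount, whereas 49.8%, 51.0% and 52.5% of all genes did. The 3 comparisons share the DMSO array and are not independent of one another.

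**Figure D2:**
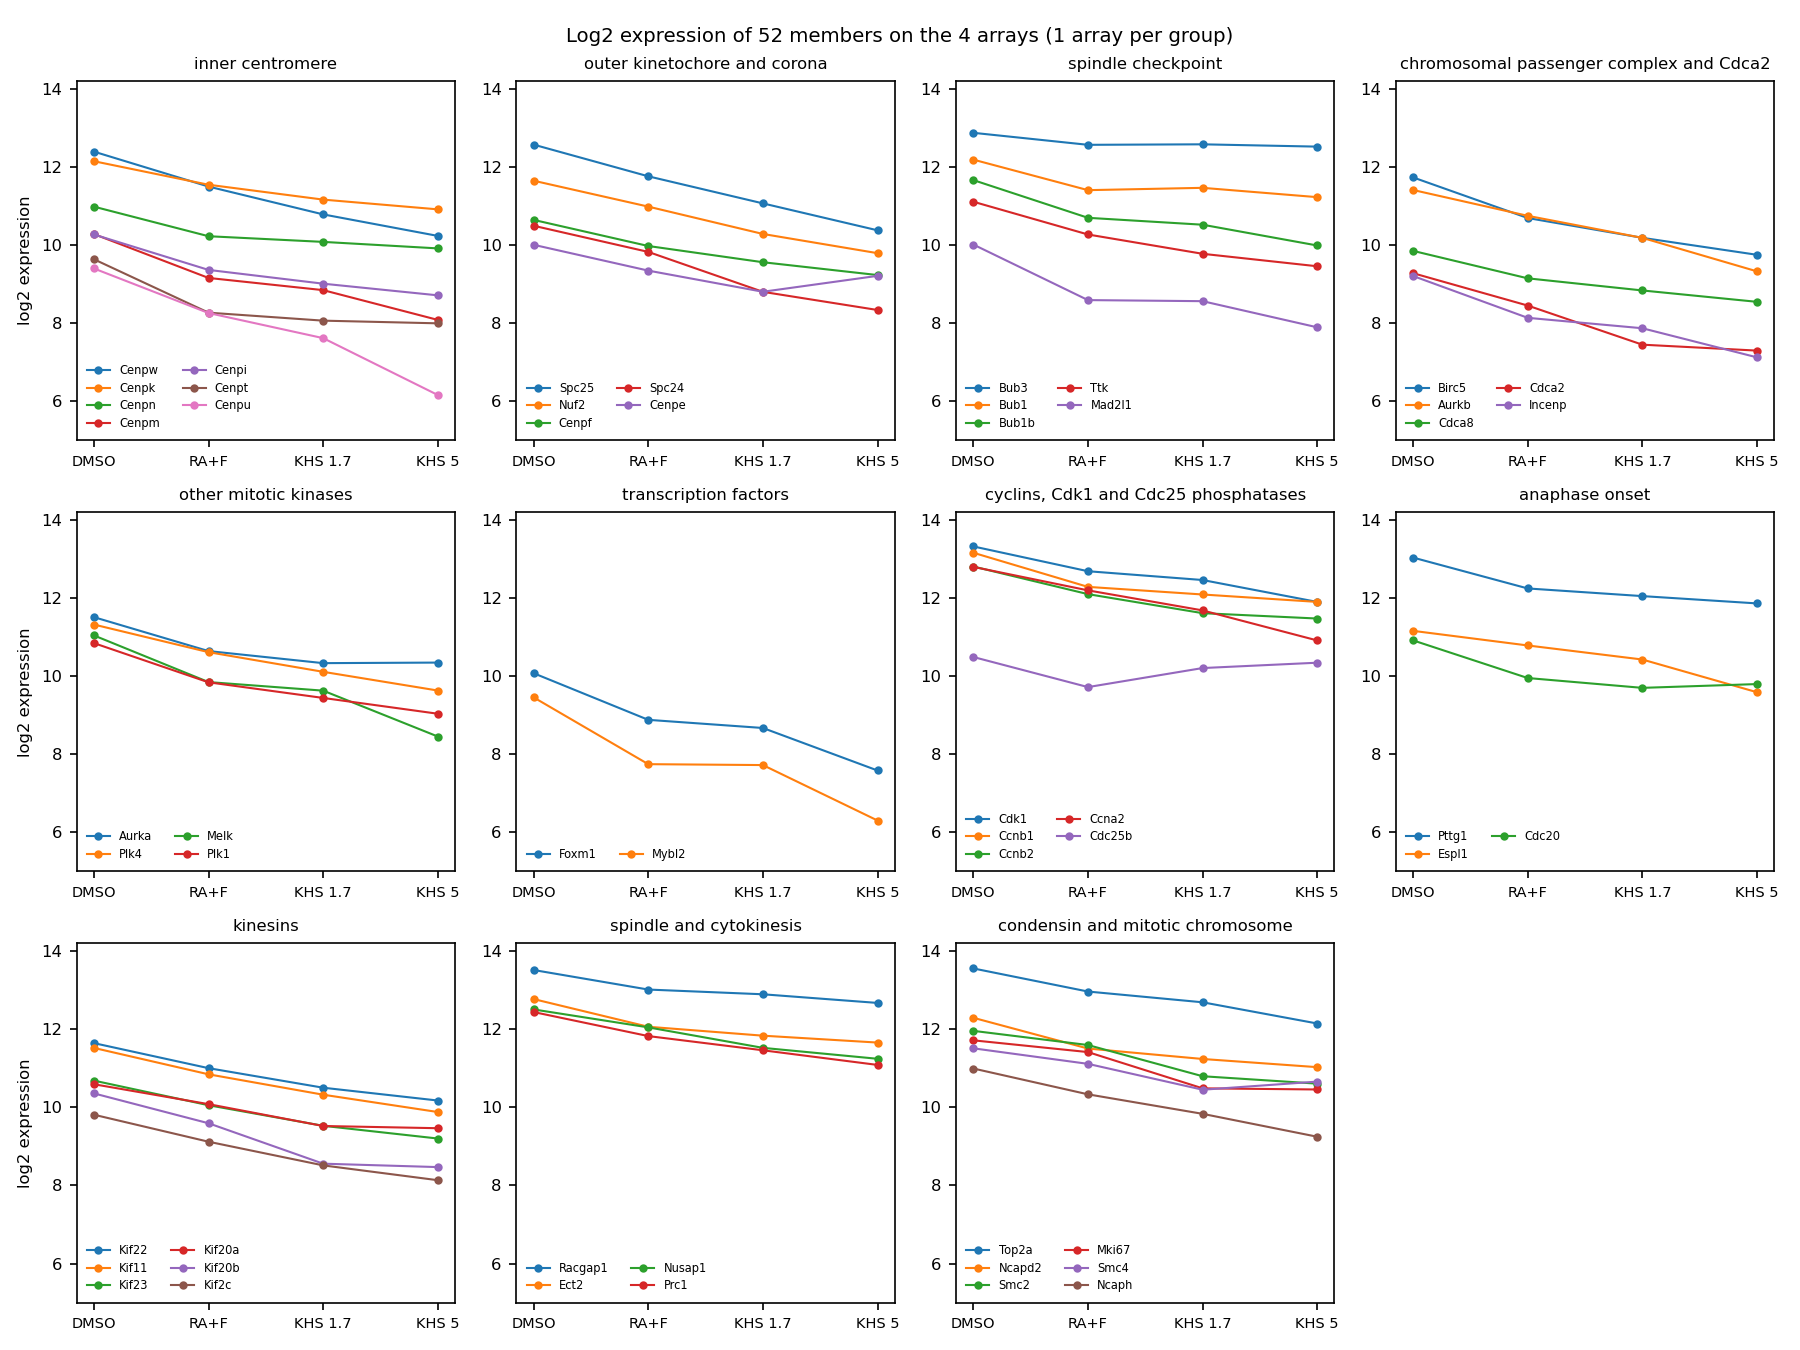
Each panel plots log2 expression of the measured members of a role group on the 4 arrays (DMSO, RA+F, KHS101 at 1.7 uM and at 5 uM), with a line per gene that joins separate cultures. Most lines step downward from left to right, for example Cenpu from 9.40 to 6.16, whereas Bub3 stays between 12.52 and 12.87.

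The order DMSO, RA+F, KHS101 1.7 uM, KHS101 5 uM, from high to low, was seen in 45 of the 52 members and in 10.3% of the 8216 genes above the floor on all 4 arrays. This order was noticed in the data and was not set beforehand. Cenpe, Bub1, Bub3, Aurka, Cdc20, Cdc25b and Smc4 departed from it. The difference of RA+F from DMSO was, in the median over members, 47.6% of that of KHS101 at 5 uM, and the difference at 1.7 uM was 77.7%. Among all measured genes, 47 of the 52 members were within the 10% with the lowest differences for KHS101 at 5 uM, 50 at 1.7 uM and 37 with RA+F.

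**Figure D3:**
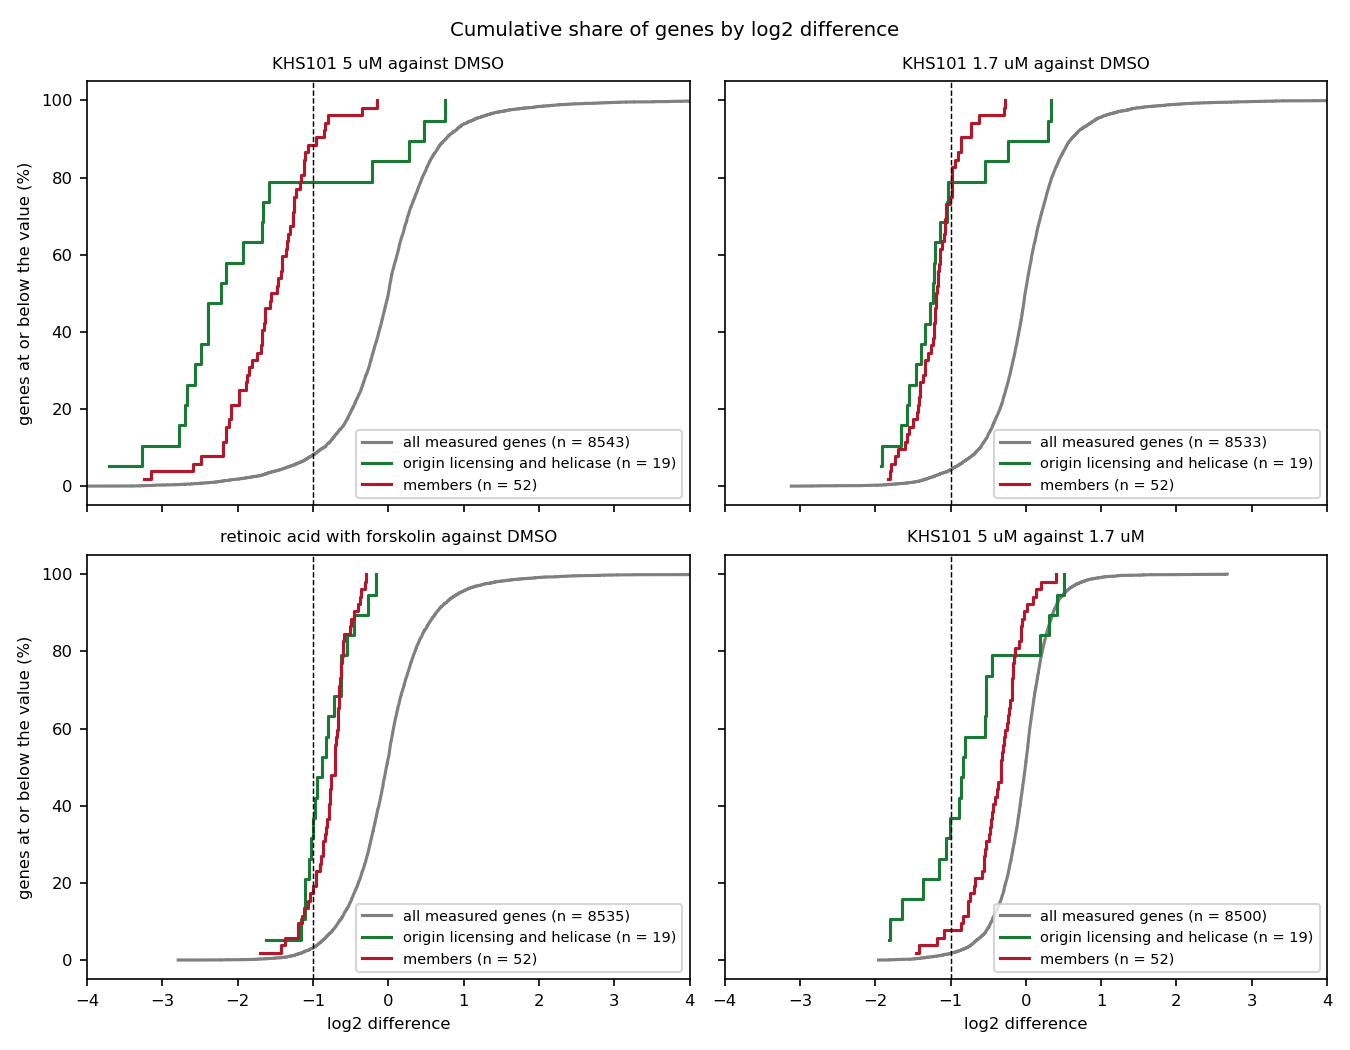
Curves give the percentage of genes at or below each log2 difference, for all measured genes (grey), 19 origin licensing and helicase genes (green) and 52 members (red), in 4 comparisons, and the dashed line marks 2-fold lower. The red curve lies left of the grey one in each panel, and the green median is below the red one in each. Against DMSO the green and red medians are -2.23 and -1.52 at 5 uM, and -1.24 and -1.19 at 1.7 uM. With RA+F they are -0.88 and -0.71, and between the KHS101 concentrations -0.83 and -0.33.

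The inner centromere genes build the platform on which the kinetochore forms. All 7 measured were lower with KHS101 at 5 uM, 5 at 1.7 uM and 3 with RA+F. Cenpu, a subunit of the constitutive centromere network, had log2 values of 9.40 in DMSO, 8.26 with RA+F, 7.62 with KHS101 at 1.7 uM and 6.16 at 5 uM. It was 9.45-fold lower at 5 uM, the furthest of all 52 members, and 2.21-fold lower with RA+F. Cenpn, which reads the CENP-A nucleosome, differed least of this group at both KHS101 concentrations, with 10.98, 10.23, 10.08 and 9.92 in the same order of arrays. Cenpm gave 10.28, 9.16, 8.85 and 8.08, so it was lower in all 3 comparisons with DMSO. Cenpt, a histone-fold subunit that recruits the outer kinetochore, had 9.64, 8.27, 8.06 and 8.0, and here the 3 treated arrays lay close together while DMSO stood apart. Cenpw, a histone-fold partner of Cenpt, read 12.39, 11.50, 10.79 and 10.23, and its second probe set read 10.56, 9.56, 8.72 and 7.79, which just reaches 2-fold with RA+F. At 5 uM, Cenpi was 2.95-fold and Cenpk 2.35-fold lower.

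The outer kinetochore binds microtubules through the NDC80 complex. Its subunit Spc25 read 12.57 in DMSO, 11.76 with RA+F, 11.07 with KHS101 at 1.7 uM and 10.38 at 5 uM, and was 4.58-fold lower at 5 uM. Spc24 and Nuf2 of the same complex were 4.46-fold and 3.62-fold lower there, so the 3 measured subunits differed from DMSO by similar amounts. At 1.7 uM these were 2.84-fold, 3.23-fold and 2.57-fold lower for Spc25, Spc24 and Nuf2, and with RA+F 1.75-fold, 1.59-fold and 1.58-fold, short of the call. Cenpe, the kinesin that brings chromosomes to the spindle equator, had values of 10.01, 9.35, 8.80 and 9.21, so that 1.7 uM was the lowest array. Its difference from DMSO was called at 1.7 uM (2.30-fold) and not at 5 uM (1.74-fold). Cenpf, a large corona protein, was 2.66-fold lower at 5 uM.

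The spindle checkpoint delays anaphase until chromosomes are attached. Mad2l1, its effector, read 10.01 in DMSO, 8.59 with RA+F, 8.56 at 1.7 uM and 7.89 at 5 uM, and was called lower in all 3 comparisons with DMSO (2.68-fold, 2.73-fold and 4.35-fold in that order). A second probe set gave 9.93, 8.67, 8.06 and 7.24, and the remaining one 8.96, 7.96, 7.67 and 7.31, called lower in the same 3 comparisons. The checkpoint kinase Ttk read 11.11, 10.27, 9.78 and 9.46 and was 3.14-fold lower at 5 uM, and its second probe set, at 10.40, 9.30, 8.91 and 8.72, also passed 2-fold with RA+F. Bub1b was 3.19-fold lower at 5 uM and Bub1 1.95-fold, just short of the call. Bub3, which also serves in interphase, depended on the probe set: the brighter one gave 12.87, 12.57, 12.58 and 12.52, and the dimmer one 7.79, 7.31, 6.73 and 6.17. The first is 1.28-fold lower at 5 uM and the second has a log2 difference of -1.61, so whether Bub3 is called depends on the probe set.

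The chromosomal passenger complex corrects attachments and then guides cytokinesis. All 4 of its genes and Cdca2, a phosphatase-targeting chromatin protein, were lower at both KHS101 concentrations. Its kinase Aurkb had log2 values of 11.41, 10.75, 10.18 and 9.33, a 4.24-fold lower level at 5 uM, 2.34-fold at 1.7 uM and 1.58-fold with RA+F. The scaffold Incenp read 9.21, 8.14, 7.87 and 7.12, and the targeting subunit Birc5 11.73, 10.69, 10.19 and 9.75. Both were also called with RA+F, at 2.10-fold and 2.06-fold. A second probe set of Incenp gave 7.32, 6.50, 6.03 and 6.31, not called with RA+F, and a dim one was above the floor in DMSO alone, at 5.03. Cdca2 read 9.28, 8.45, 7.45 and 7.30, and its second probe set 8.59, 7.40, 7.05 and 6.43, which was called with RA+F where the first was not. Cdca8 (borealin) differed least at both KHS101 concentrations, with 9.85, 9.15, 8.84 and 8.55.

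Among the other mitotic kinases, Melk stood out in the dose step. Its values were 11.04 in DMSO, 9.85 with RA+F, 9.63 at 1.7 uM and 8.46 at 5 uM, which is 6.02-fold lower at 5 uM than in DMSO and 2.26-fold lower than at 1.7 uM. Plk1, which acts from mitotic entry to cytokinesis, read 10.85, 9.84, 9.44 and 9.04, and its 2.01-fold difference with RA+F lay at the edge of the call. Plk4, the trigger of centriole duplication, was 3.23-fold lower at 5 uM. Aurka, the centrosomal aurora kinase, had nearly equal levels at both KHS101 concentrations, 10.34 at 1.7 uM and 10.35 at 5 uM, against 11.51 in DMSO and 10.64 with RA+F.

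The factors that switch the mitotic genes on were among the members furthest from DMSO. Mybl2 (B-Myb), which joins the MuvB core in S phase, had 9.46 in DMSO, 7.75 with RA+F, 7.72 with KHS101 at 1.7 uM and 6.31 at 5 uM. It was 8.90-fold lower at 5 uM, 3.33-fold at 1.7 uM and 3.27-fold with RA+F, the largest difference of any member in that last comparison. Its second probe set read 8.38, 7.59, 7.18 and 5.51, in the same order but with a difference short of 2-fold for RA+F. Foxm1, which follows Mybl2 in G2, gave 10.08, 8.88, 8.67 and 7.59, a 5.62-fold lower level at 5 uM. A dimmer probe set of Foxm1 read 6.37 in DMSO and 5.44 with RA+F, a log2 difference of -0.93 that is short of the call passed by the brighter one (2.29-fold), and was under the floor on both KHS101 arrays.

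Cyclins and the kinase Cdk1 drive entry into mitosis. Ccna2, which already acts in S phase, was 12.80, 12.20, 11.69 and 10.92 on the 4 arrays, 3.69-fold lower at 5 uM. Cdk1 was 2.68-fold, Ccnb2 2.52-fold and Ccnb1 2.39-fold lower there. Cdc25b, a phosphatase that activates Cdk1, did not follow the rest: its values were 10.49 in DMSO, 9.72 with RA+F, 10.21 at 1.7 uM and 10.35 at 5 uM. It is the sole measured member for which the 5 uM array lay above that of RA+F, by 0.62 on the log2 scale, and it was called in no comparison.

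Anaphase begins when Cdc20 directs the anaphase-promoting complex to securin (Pttg1) and frees separase (Espl1). Espl1 read 11.16, 10.79, 10.43 and 9.59, a 2.97-fold lower level at 5 uM. Of its log2 difference, -0.73 lay between DMSO and 1.7 uM and -0.84 between the KHS101 concentrations. Cdc20 was already low at 1.7 uM, with 10.92, 9.95, 9.70 and 9.80, and was 2.17-fold lower at 5 uM. Its second probe set above the floor gave 10.41, 9.21, 9.31 and 9.18, which reaches the call with RA+F too, and its remaining 3 probe sets were under the floor. Pttg1 was 2.26-fold lower at 5 uM.

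Besides Cenpe, described with the corona, the members hold 6 measured kinesins, and all 6 were lower at both KHS101 concentrations. With RA+F none was called, where 3.15% of all genes were lower. The 6 still lay 1.42-fold (Kif20a) to 1.70-fold (Kif20b) below DMSO there. Kif20b, a motor of late cytokinesis, had log2 values of 10.36 in DMSO, 9.59 with RA+F, 8.56 at 1.7 uM and 8.47 at 5 uM, so that both KHS101 arrays lay together, 3.48-fold and 3.70-fold lower. Kif20a differed least, with 10.59, 10.08, 9.52 and 9.47. The depolymerase Kif2c read 9.81, 9.12, 8.51 and 8.14, with 9.57, 8.58, 8.10 and 7.56 from its second probe set, which differs in that 5 uM lay over 2-fold below RA+F. The spindle-separating motor Kif11, Kif2c, the central spindle motor Kif23 and the chromosome-arm motor Kif22 were 3.12-fold, 3.20-fold, 2.80-fold and 2.77-fold lower at 5 uM. In the spindle and cytokinesis group, Prc1 was lower at 5 uM with values of 12.44, 11.83, 11.46 and 11.09, as were Nusap1 (2.40-fold) and Ect2, the exchange factor that switches on RhoA (2.16-fold). Racgap1, its activator at the midzone, read 13.52, 13.02, 12.90 and 12.67, a 1.79-fold difference at 5 uM, and its second probe set read 12.08, 11.25, 11.13 and 10.86 and passed 2-fold there. None of these 4 was called at 1.7 uM or with RA+F, although Prc1 and Nusap1 were 1.97-fold and 1.98-fold lower at 1.7 uM. With RA+F the 4 lay 1.37-fold (Nusap1) to 1.63-fold (Ect2) below DMSO.

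Condensin compacts mitotic chromosomes, together with topoisomerase II. Ncaph, its kleisin subunit, had values of 11.00, 10.33, 9.83 and 9.25 and was 3.36-fold lower at 5 uM. Smc4 gave 11.51, 11.11, 10.45 and 10.66, called at 1.7 uM (2.09-fold) and not at 5 uM (1.81-fold), with a second probe set near the floor that was not called. Smc2 and Ncapd2 were 2.55-fold and 2.40-fold lower at 5 uM. Top2a, the topoisomerase, had 13.56, 12.97, 12.69 and 12.15, not called at 1.7 uM, while its second probe set had 12.92, 12.11, 11.80 and 11.04 and was called there. The widely used division marker Mki67 read 11.72, 11.42, 10.49 and 10.46, so RA+F stayed near DMSO (1.23-fold lower, the smallest difference of any member there) and both KHS101 arrays lay together.

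**Figure D4:**
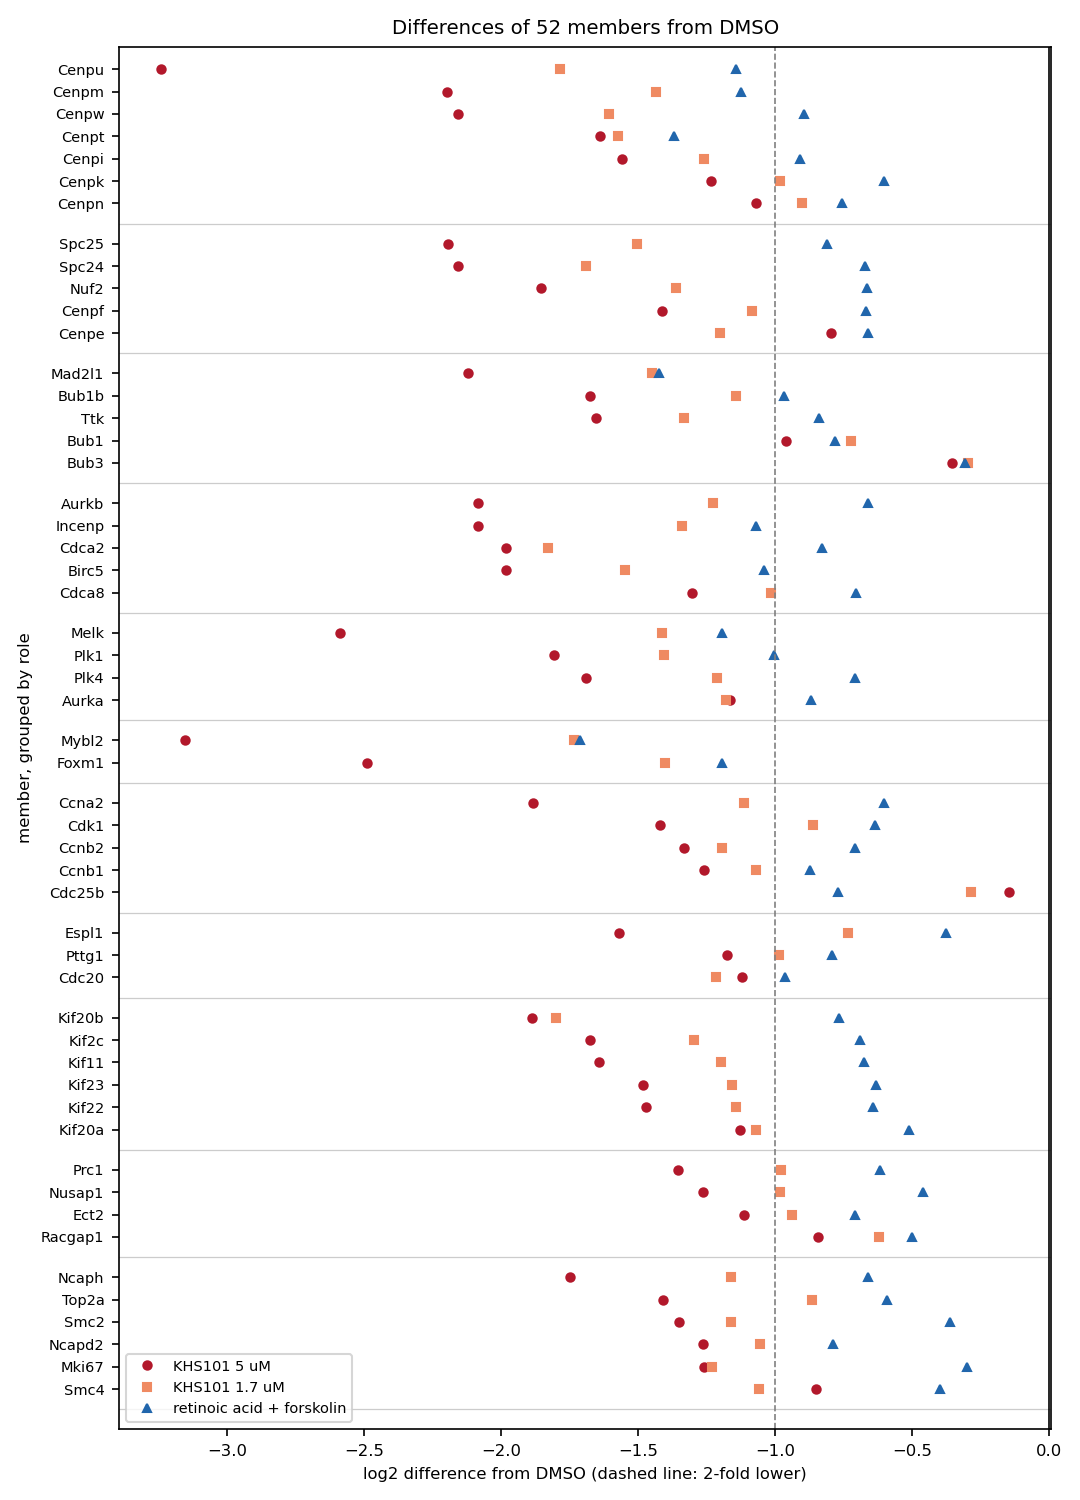
Each row is a measured member, grouped by role, with its log2 difference from DMSO for KHS101 at 5 uM (red circles), KHS101 at 1.7 uM (orange squares) and RA+F (blue triangles); the dashed line marks 2-fold lower. Every symbol lies left of 0, and blue triangles pass the dashed line in 10 rows.

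Set against each other, the KHS101 arrays differed less than either did from DMSO. At 5 uM, 4 of the 52 members were lower than at 1.7 uM and 0 were higher, beside 1.73% and 0.812% of all genes. These were Cenpu (2.74-fold), Mybl2 (2.67-fold), Melk (2.26-fold) and Foxm1 (2.13-fold). The median difference was -0.33, with 47 members below 0. Cenpe, Smc4, Cdc25b, Cdc20 and Aurka were the 5 with a higher value at 5 uM, by 0.41, 0.21, 0.14, 0.10 and 0.01 on the log2 scale. The second probe set of Cdc20 above the floor went the other way, by -0.13. At both concentrations 37 members were lower than DMSO, 9 at 5 uM alone and 2 (Cenpe and Smc4) at 1.7 uM alone, while Bub1, Bub3, Racgap1 and Cdc25b were called with no treatment. This split was not counted over all genes and rests on the cut. The 9 were 1.66-fold (Espl1) to 1.98-fold (Pttg1) lower at 1.7 uM. With 1.5-fold as the call, 50 of the 52 were lower than DMSO at 5 uM and 50 at 1.7 uM (16.1% and 10.6% of all genes). Of the 4 called members, Cenpu, Melk and Mybl2 have a promoter window, without a CHR match in any of the 3, and Foxm1 was not matched to a window. A match was found in 12.8% of the 7307 windows of measured named genes. The 32 measured members with a CHR match had a median dose step of -0.32, and the 13 without one -0.38. Against DMSO at 5 uM their medians were -1.42 and -1.64, with 29 and 11 called lower.

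Compared with RA+F, 16 members were lower with KHS101 at 5 uM and 0 higher (10.2% and 8.94% of all genes), with a median of -0.81. Cenpu (4.28-fold) and Spc24 (2.80-fold) led them, followed by Mybl2 (2.72-fold) and Aurkb (2.68-fold). At 1.7 uM, 3 were lower and 0 higher (5.39% and 5.93% of all genes), with a median of -0.39, so the share of members called, 5.77%, was near that of all genes. These were Kif20b (2.05-fold), Spc24 (2.03-fold) and Cdca2 (2.00-fold), the last not called by its second probe set. Mybl2, Mad2l1 and Bub3 had nearly the same value on these arrays, differing by -0.02, -0.03 and 0.01 on the log2 scale.

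The dose step of KHS101 and the difference of RA+F from DMSO rest on separate pairs of arrays. Across the 52 members they had a Pearson's r of 0.50 and a Spearman's rho of 0.28, and without Cenpu and Mybl2 the values were 0.33 and 0.20. Across the 8216 genes above the floor on all arrays r was -0.14. The other pairings of separate arrays gave another picture. For 5 uM against RA+F with 1.7 uM against DMSO, r was 0.68 over the members and 0.56 over all genes, and for 5 uM against DMSO with 1.7 uM against RA+F it was 0.31 and 0.62, so the members did not stand above all genes in each pairing. These are descriptions over genes, which share arrays and cultures and are not independent replicates. Differences were also smaller for members with higher readings: over the 52 members the difference at 5 uM and the mean level over the 4 arrays, which hold the same values, had an r of 0.56.

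**Figure D5:**
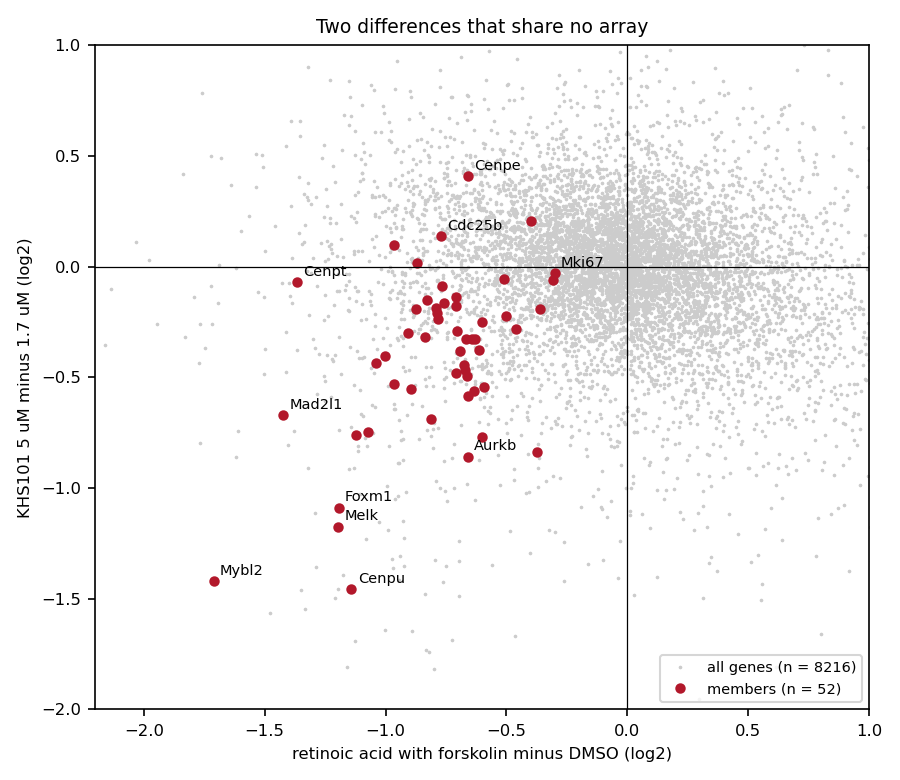
Each point is a gene, plotted by the log2 difference of RA+F from DMSO (x) and of KHS101 5 uM from 1.7 uM (y), for 8216 genes above the floor on all arrays (grey, those beyond the axes not drawn) and 52 members (red). Mybl2, Melk, Foxm1 and Cenpu lie at the lower left, and Cenpe lies highest among the members.

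Other mitotic genes, listed by pathway, were read in the same way. Over all genes, 8.10% were lower with KHS101 at 5 uM, 4.27% at 1.7 uM and 3.15% with RA+F. Among 24 further kinetochore genes, 16 were lower with KHS101 at 5 uM, 13 at 1.7 uM and 7 with RA+F, and 0 were higher in any of these. Dsn1 of the MIS12 complex was furthest at 5 uM, with 10.35, 9.60, 8.99 and 7.64. Of 21 further spindle and motor genes 15, 13 and 1 were lower, the last being Haus1, an augmin subunit named for this count. Tacc3, a spindle protein known as a binding partner of KHS101, was among them with 11.28 in DMSO, 10.45 with RA+F, 10.03 at 1.7 uM and 9.83 at 5 uM, which is 2.74-fold and 2.39-fold lower at 5 uM and 1.7 uM. Fam83d, which recruits a kinase to the spindle, was 6.87-fold lower at 5 uM. The share of the spindle and motor list called with RA+F, 4.76%, was near that of all genes.

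The remaining lists cover the steps before and after chromosome attachment. Their counts stand beside the same shares of all genes, 8.10%, 4.27% and 3.15%. Among 16 genes of the anaphase-promoting complex and its regulators, 3 were lower at 5 uM, 2 at 1.7 uM and 0 with RA+F: the inhibitor Fbxo5 (2.67-fold at 5 uM), the ubiquitin-conjugating enzyme Ube2c (2.56-fold) and the small subunit Anapc13 (2.29-fold), named after their values were seen. In the list of cohesin and other condensin genes 4 of 13 were lower at 5 uM, with the cohesin acetyltransferase Esco2 7.15-fold lower. Entry kinases and phosphatases were lower in 9 of 14 cases at 5 uM, 4 at 1.7 uM and 4 with RA+F, with the centrosomal protein Cdk5rap2 furthest at 5 uM, 4.22-fold lower. Of 10 DREAM and MuvB genes 3 were lower at 5 uM, 1 at 1.7 uM and 0 with RA+F, with the E2F partner Tfdp2 furthest, 4.40-fold lower. E2f4, the DREAM repressor subunit, had 8.40, 7.84, 8.46 and 8.54, so RA+F was the lowest array, with a log2 difference of -0.56 from DMSO. Cdkn1a, which encodes the CDK inhibitor p21, read 7.33 in DMSO, 7.69 with RA+F, 10.33 at 1.7 uM and 10.87 at 5 uM, so the RA+F array was near DMSO.

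Origin licensing and helicase genes, the closest S phase list, had 15 of 19 lower at 5 uM, 15 at 1.7 uM and 7 with RA+F. Their medians were -2.23, -1.24 and -0.88, beside -1.52, -1.19 and -0.71 for the mitotic members. Between the KHS101 concentrations 7 of the 19 were lower at 5 uM, with a median of -0.83, beside 4 of 52 and -0.33. The difference between the lists was not tested. The 8 measured reference genes had medians of 0.04, 0.05 and -0.07 in the comparisons of 5 uM, 1.7 uM and RA+F with DMSO, and none was called. The furthest was Hprt1 with RA+F, at a log2 difference of -0.84 and so beyond the members' median there.

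Repeat probe sets were the sole second measurement of a gene. For the 17 measured members with a further probe set above the floor, 19 such probe sets differed from DMSO in the same direction as the first in 19 of 19 cases for each treatment. Where DMSO alone of the compared arrays was above the floor, the floor fixed that direction. This held for the dimmest probe set of Incenp with each treatment, and for the dimmer ones of Foxm1 and Smc4 with KHS101. Where the first was called lower, the other was too in 15 of 16 cases at 5 uM, 13 of 15 at 1.7 uM and 2 of 6 with RA+F. Between the KHS101 concentrations 13 of 16 had the direction of the first, and those of Cdc20, Incenp and Kif23 the opposite one. Against RA+F the directions matched in 18 of 18 cases at 5 uM and 16 of 18 at 1.7 uM. The floor fixed those of Foxm1 and Smc4 there. Repeat probe sets share the RNA and the array and so cover probe noise alone.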

How the data were processed

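RNA of 4 cultures was measured on Affymetrix rat 3' expression arrays, 1 per group. The authors deposited log2 expression values for 31099 probe sets, named per the submitters' processing notes with GCRMA and R 2.6.2, without a GCRMA version or the step each served. The log2 scale was read from the values, which reach 16.1. At equal ranks the columns differed by a median of 0.06, so a shift of all genes in the same direction cannot be seen.

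Of these probe sets, 57 were controls, 20826 carried 1 gene symbol, 436 several and 9780 none in the platform annotation, and those with 1 symbol were used. Where a gene had several, the brightest by its 4-array mean was used. Values under log2 = 5 were raised to it, since differences among the lowest values were taken as noise, and a gene was measured if 1 of the 2 arrays compared was above it. The 6 comparisons used differences of log2 values, with 2-fold as the call, and no test. Correlations across genes are descriptions. Promoter motifs were counted in RefSeq windows. Call code was tested on simulated shifts.

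The members and lists were chosen with earlier results of these data known. Genes named followed a rule: in each role group the members furthest from and nearest to DMSO at 5 uM, those with probe sets that disagree, and those called between KHS101 concentrations or with retinoic acid plus forskolin, are given on every array, others where a complex needed them. Alternatives were 3 floors, 2 folds, 2 probe set rules and 2 scalings. Calculations used Python 3.11.15, pandas 2.3.3, NumPy 2.4.6 and SciPy 1.17.1.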

Additional observations from a re-analysis of the deposited data

How the results depend on the processing

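The counts of members lower and higher in the 6 comparisons and their medians were recomputed under 9 alternatives. With floors of 4 or 6, no floor, other probe sets or other scaling, no count left a factor of 1.5 and no median moved by over 0.1. The fold that counts as a call mattered. At 1.5-fold, 44 members were lower with RA+F than in DMSO (12.2% of all genes), 12 at 5 uM than at 1.7 uM (6.27%), and against RA+F 38 at 5 uM (20.0%) and 11 at 1.7 uM (13.1%), while 1 (Cdc25b) was higher at 5 uM than with RA+F. At 3-fold, 24 members were lower than DMSO at 5 uM (3.51% of all genes), 6 at 1.7 uM (0.797%) and 1 with RA+F (0.398%), and 0 at 5 uM than at 1.7 uM (0.200%). Against RA+F, 1 was lower 3-fold at 5 uM and 0 at 1.7 uM, shares of the 52 members below those of all genes (4.18% and 1.76%). In the comparisons with DMSO and between KHS101 concentrations, apart from the change of fold, 24 of 1453 recomputed member values changed their call and no called value changed sign. All but Plk1 with RA+F under quantile normalization came from another choice of probe set: Incenp lost all 3 calls on its dimmest one. Averaged with probe sets under the floor, Cenpt lost all 3 calls against DMSO and Cdc20 both of its KHS101 calls. No paired analysis was possible because each group holds 1 array. For the same reason no array could be left out, so the share of any difference that belongs to a single array is unknown.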
